A study of Homo sapiens with 12 samples.

Results

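The genes described here are DDIT4, the sestrins SESN1, SESN2 and SESN3, the tuberous sclerosis genes TSC1 and TSC2, the small GTPase gene RHEB, MTOR, its partner RPTOR and the mTORC1 substrate gene EIF4EBP1, followed through a hypoxia time course in HCT116, an established human colorectal cancer cell line. The 10 genes were taken by name, with earlier results of these data known. A gene's level is the summed FPKM (fragments per kilobase of transcript, scaled to the mapped fragments of the library) of its transcripts that Cufflinks matched to an annotated transcript in full (class code =) or in at least 1 splice junction (class code j). They held 112 of the 286562 such transcripts and 10 of the 56537 gene names in the table. All 10 genes and 45 of the 112 transcripts passed a filter of FPKM above 0.5 in at least 3 libraries. The cells were grown at 21% O2 (0 h) or in 1% O2 for 1, 2 or 24 h, with 3 biological replicates at each of 4 time points and 12 poly(A) libraries in all. Hypoxia began 24 h after plating, and nothing in the sources says at what age of culture the 0 h cells were harvested, so at 24 h the age of the culture and the lack of oxygen cannot be told apart.

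mTORC1 is the kinase complex that couples protein synthesis and growth to nutrients, growth factors and energy. Its kinase MTOR binds the scaffold RPTOR, is switched on by RHEB at the lysosome, and phosphorylates EIF4EBP1, a repressor of cap-dependent translation that lets go of eIF4E once phosphorylated. TSC1 and TSC2 form the complex that switches RHEB off. DDIT4 (also called REDD1) is a stress protein and a known target of hypoxia-inducible factor that holds mTORC1 down through the TSC complex, whereas the sestrins are stress proteins that bind GATOR2 and so restrain the amino acid input. None of these protein activities was measured; the values are transcript levels.

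After 24 h the transcripts of several upstream inhibitors rose and those of the kinase fell. DDIT4 went from 15.6 ± 4.57 to 805 ± 56.5 FPKM (n = 3, ± SD), and SESN1, SESN3 and TSC1 were also higher, with MTOR lower at 8.19 ± 0.644 against 14.0 ± 1.22 FPKM (n = 3, ± SD). EIF4EBP1, a target of the kinase, was slightly higher, by 0.31 on the log2 scale (limma adjusted p = 0.0498). SESN2, TSC2, RHEB and RPTOR did not pass the test. With libraries rescaled to an equal sum (TPM) SESN1, TSC1 and EIF4EBP1 stood at log2 fold changes of 0.01, -0.17 and -0.55, as set out at the end. RPTOR nevertheless changed in composition, since an assembled isoform that was nearly absent until 2 h made up 32.3% of its FPKM at 24 h.

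The promoters of DDIT4, which changed the most, of both starts of SESN1, which differed from each other, and of MTOR, which fell, are shown first, because the hypoxia response element core (ACGTG or GCGTG on either strand) is the sequence that hypoxia-inducible factor binds. Each window is the 250 bases before the annotated start of the named transcript (GENCODE release 44, GRCh37), read 5′ to 3′ on the gene's strand, with matches in capitals.
DDIT4 ENST00000307365, chr10:74033428-74033677, + strand: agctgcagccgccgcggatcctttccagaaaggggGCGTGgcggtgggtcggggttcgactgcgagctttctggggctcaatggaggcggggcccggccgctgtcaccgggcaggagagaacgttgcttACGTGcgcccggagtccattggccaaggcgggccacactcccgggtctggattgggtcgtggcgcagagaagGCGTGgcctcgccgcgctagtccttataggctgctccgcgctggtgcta
SESN1 ENST00000356644, the downstream start, chr6:109330759-109331008, - strand: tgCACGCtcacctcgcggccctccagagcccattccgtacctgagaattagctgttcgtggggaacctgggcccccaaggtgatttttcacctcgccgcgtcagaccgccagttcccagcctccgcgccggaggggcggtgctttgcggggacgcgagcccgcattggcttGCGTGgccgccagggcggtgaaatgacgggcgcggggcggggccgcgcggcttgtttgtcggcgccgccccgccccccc
SESN1 ENST00000436639, the upstream start, chr6:109416050-109416299, - strand: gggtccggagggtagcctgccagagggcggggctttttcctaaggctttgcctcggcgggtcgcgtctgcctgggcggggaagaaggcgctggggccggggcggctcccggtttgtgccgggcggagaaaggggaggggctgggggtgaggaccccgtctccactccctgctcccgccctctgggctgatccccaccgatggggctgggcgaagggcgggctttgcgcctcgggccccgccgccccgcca
MTOR ENST00000361445, chr1:11322609-11322858, - strand: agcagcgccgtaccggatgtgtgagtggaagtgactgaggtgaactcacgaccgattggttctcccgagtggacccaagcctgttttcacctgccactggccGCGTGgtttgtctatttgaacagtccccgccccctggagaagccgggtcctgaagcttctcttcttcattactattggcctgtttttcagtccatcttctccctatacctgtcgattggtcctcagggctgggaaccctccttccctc
The DDIT4 window held 3 matches, beginning 215, 121 and 49 bases before the start. The downstream SESN1 start had 2 matches, the upstream start 0 and MTOR 1. Of 19894 promoters of the same length, 51.4% held at least 1 match to either string (ACGTG or GCGTG, both strands) and 10.2% held 3 or more. Matches numbered 3 in EIF4EBP1, 2 each in RPTOR and TSC2, with an overlapping pair in EIF4EBP1 and in TSC2, 1 each in SESN3 and RHEB, and 0 in SESN2 and TSC1. The element TGATGNAA, to which ATF4 binds in stress-response genes, had a match only in TSC2 among these windows and in 2.19% of all promoters. A match is a string of letters and not a measured binding site.

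The libraries carried the transcripts of the labelled cells. The epithelial genes EPCAM, KRT8, KRT18, KRT19 and CDH1 were expressed in all 12 libraries, while VIL1, also on that list of 6, reached 0.0480 FPKM at most. Of 6 genes of leukocytes, fibroblasts and endothelium, 5 reached 0.0763 FPKM at most, with PECAM1 at 0 throughout. COL1A1 was the exception at 1.79 to 2.16 FPKM at 0 h and 5.75 to 8.79 FPKM at 24 h; its part in the results was not tested. The hypoxia genes CA9, VEGFA, NDRG1 and ADM rose at 24 h by log2 fold changes of 3.13, 1.90, 5.34 and 3.45. The paper gives an average and a range of read-pairs per sample, but the number of reads behind a value cannot be recovered from FPKM. The spread between the 3 replicates was the only measure of precision used. In bulk libraries fewer cells of a kind and less RNA per cell cannot be told apart.

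The test was limma on log2(FPKM + 0.5), fitted to the 12 libraries together and adjusted by Benjamini-Hochberg over 16680 gene names, and a gene was called at a log2 fold change beyond 1 and an adjusted p under 0.01. The added 0.5 shrinks the fold change of weakly expressed genes. At 24 h against 0 h, 2 of the 10 genes (DDIT4 and SESN3) were called, while 18.3% of all genes tested were. At an adjusted p under 0.05 and any size the count was 6 of 10 against 55.3% of all genes, with 5 higher (25% of all genes) and 1 lower (30.3% of all genes). The median log2 fold change of the 10 genes was 0.27, against -0.05 over all genes tested. The counts over both directions lie near their backgrounds. By direction the share was above the background for higher genes and below it for lower ones. This describes 10 genes taken by name, with earlier results of these data known, and is no test.

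**Figure D1:**
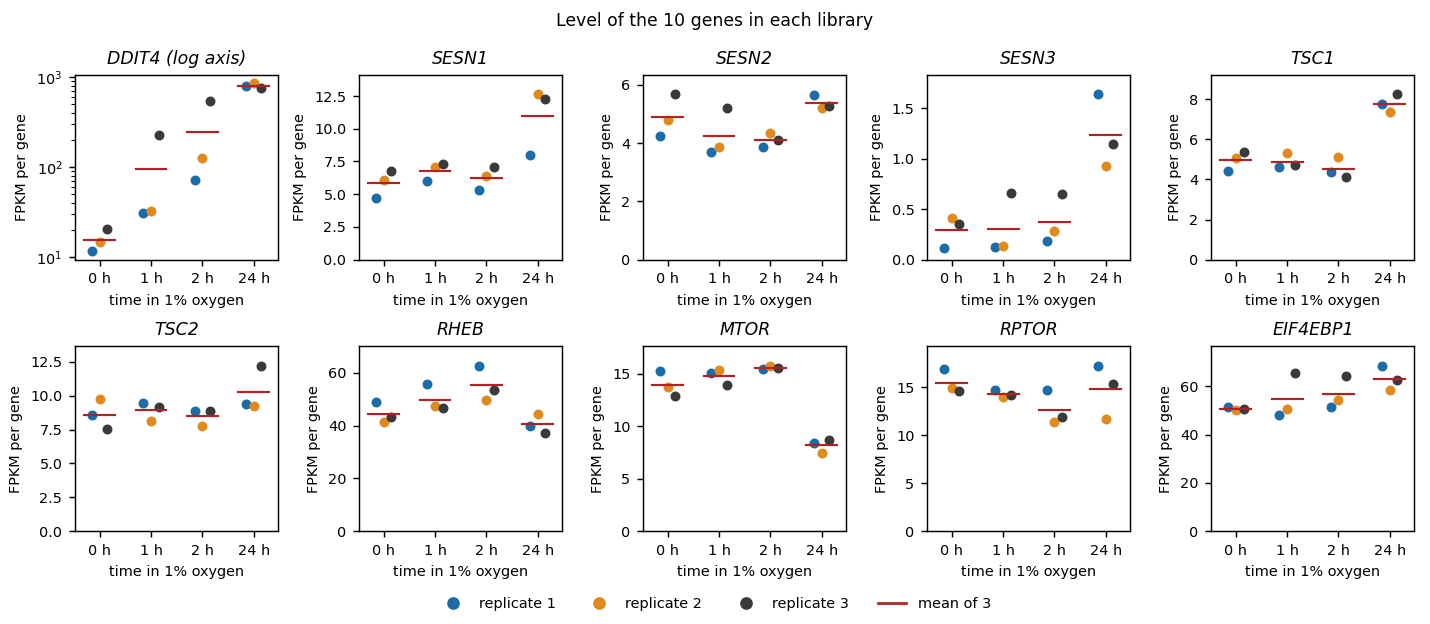
FPKM of each of the 10 genes (y axis, per gene; logarithmic for DDIT4, linear from 0 for the others) in the 12 libraries by time in 1% oxygen (x axis), with a point for each replicate and a line at the mean of 3. DDIT4 climbs from 11.6 to 20.6 FPKM at 0 h to 751 to 863 FPKM at 24 h with replicate 3 ahead at 1 h and 2 h, and the 3 MTOR libraries at 24 h lie below every earlier library.

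DDIT4 (ENSG00000168209; GRCh37 chromosome 10, 74033678 to 74035794, + strand) had an FPKM of 11.6, 14.6 and 20.6 in the 0 h replicates 1, 2 and 3. After 1 h the values were 31.3, 32.2 and 226 FPKM. After 2 h they were 71.7, 126 and 537 FPKM. In each of these groups replicate 3 was the highest, and each 1 h and 2 h library lay above every 0 h library. At 24 h the values drew together at 801, 863 and 751 FPKM, above all earlier libraries. The ratio of the means was 6.19 at 1 h, 15.7 at 2 h and 51.6 at 24 h. DDIT4 had a log2 fold change of 5.68 at 24 h (SE 0.75, limma adjusted p = 5.2e-05) and of 3.44 at 2 h (SE 0.75, limma adjusted p = 0.082). At 1 h it was 1.98 (SE 0.75, limma adjusted p = 1). The 2 h value had a limma adjusted p of 0.0232 with the replicate number as a block and was not called in that fit either. Over all genes tested, same-numbered libraries of 0 h and 2 h deviated together in all 3 pairs (r from 0.129 to 0.362). Whether this lies behind the lower value for DDIT4 was not tested. The early values were thus above 0 h in every library but did not meet the call, and the SE of DDIT4 was the widest of the 10 genes.

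At 1 h, 0 of the 10 genes were called by limma (0.006% of all genes), and 1 gene had an unadjusted p under 0.05. At 2 h the count was again 0 of 10 (0.018% of all genes), with 2 genes at an unadjusted p under 0.05. In DDIT4 replicate 3 stood at 1.57 times the mean of the other two at 0 h, 7.13 times at 1 h, 5.45 times at 2 h and 0.902 times at 24 h. Without replicate 3 at 1 h and at 2 h, a setting chosen after the values were seen, DDIT4 at 2 h had a log2 fold change of 2.61 and a limma adjusted p of 0.0056 and was called. Without replicate 3 at 2 h alone it was not called. With all libraries kept it was called on the TPM scale over all transcripts, at 2.32 (limma adjusted p = 2.9e-04). On the TPM scale limited to transcripts of at least 300 bases it was not called, at 3.44 (limma adjusted p = 0.0966). Without replicate 3 at 1 h alone the change of DDIT4 at 1 h was 1.04. Its 2 h value then had a limma adjusted p of 0.0331 and was not called.

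The genes whose levels followed DDIT4 most closely were found by correlation. Over the 12 libraries, and among 10269 genes with a mean of at least 5 FPKM, the highest Pearson's r with DDIT4 on the log2 scale belonged to GDF15 (0.98), BHLHE40 (0.98), SPRY4 (0.98), IER3 (0.97) and IRF2BPL (0.97). The libraries fall into 4 time points, which all these genes share, and the coefficients are given as a description. GDF15, a stress-induced cytokine, stood at 27.9, 37.6 and 125 FPKM at 1 h and at 341, 304 and 250 FPKM at 24 h. BHLHE40, a hypoxia-responsive transcriptional repressor, stood at 24.1, 31.6 and 182 FPKM at 2 h and at 97.4, 101 and 105 FPKM at 24 h. Replicate 3 was the highest at both 1 h and 2 h in each of the 5, but a gene could rank high only by following DDIT4 in these same libraries, so this is no separate observation. The 4 hypoxia genes were not chosen by that correlation. ADM, the adrenomedullin gene, had 42.7, 63.9 and 163 FPKM at 2 h, with replicate 3 ahead at 1 h as well. In NDRG1, a stress-responsive gene, replicate 3 was the highest at every time point, at 1.46, 1.47, 1.88 and 1.30 times the mean of the other two at 0, 1, 2 and 24 h. In VEGFA, the angiogenic growth factor gene, these ratios were 1.00, 1.06, 1.29 and 0.850. CA9, the carbonic anhydrase gene, did not share this, with 0.0789, 0 and 0.0472 FPKM at 1 h and 0.0712, 0.513 and 0.236 FPKM at 2 h.

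**Figure D2:**
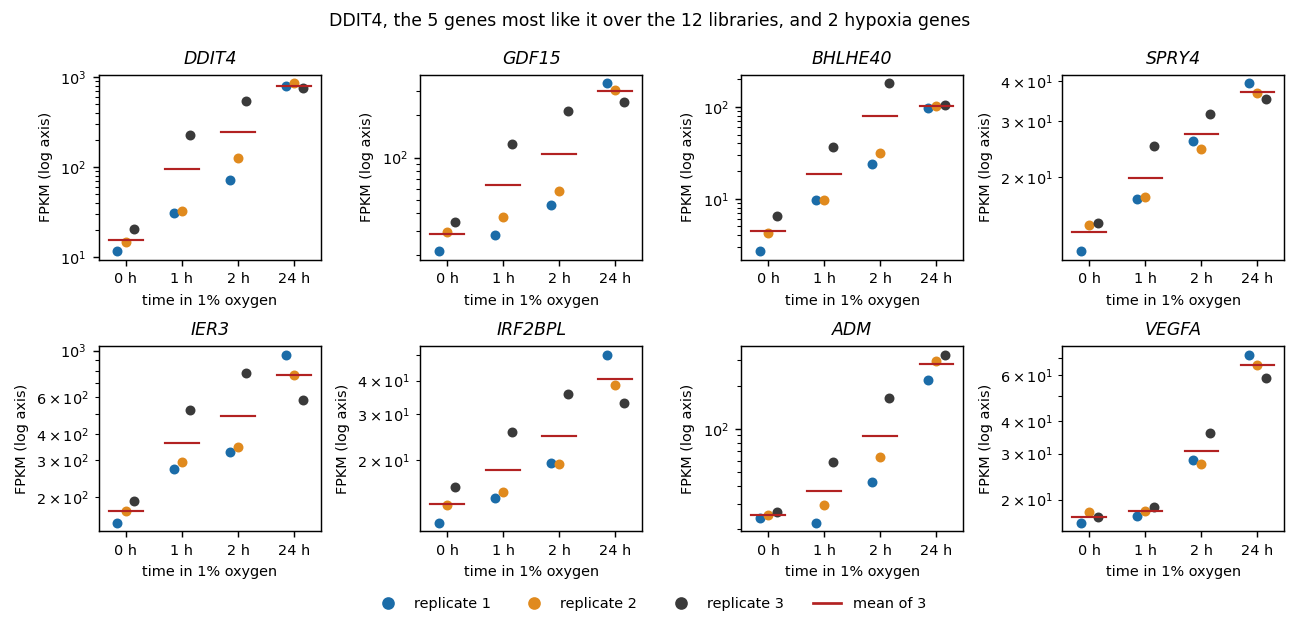
FPKM on a logarithmic y axis for DDIT4, for the 5 genes with the highest correlation to it and for the hypoxia genes ADM and VEGFA in each library by time in 1% oxygen (x axis); points are replicates and lines the mean of 3. Replicate 3 lies above the other replicates at 1 h and 2 h in all 8 panels (5 of them ranked on these libraries; CA9, not drawn, differs), and in DDIT4 it is at 226 and 537 FPKM there.

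Nearly all DDIT4 signal came from a single transcript. The protein-coding ENST00000307365 held 98.5%, 96.0%, 97.2% and 97.3% of the gene's FPKM at 0, 1, 2 and 24 h. The retained-intron transcripts ENST00000473155 and ENST00000471240 rose with it, from means of 0.10 and 0.16 FPKM at 0 h to 6.0 and 9.72 FPKM at 24 h, as did an isoform of class j that reached 5.56 FPKM. Their level changes were called (log2 fold changes from 3.43 to 4.03), yet each held 1.4% or less of the gene at any time point on average.

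The sestrins did not move together. SESN1 (ENSG00000080546; chromosome 6, 109305512 to 109416049, - strand), a p53 and FOXO target, had an FPKM of 4.73, 6.08 and 6.79 at 0 h. At 1 h and 2 h it ranged from 5.35 to 7.27 FPKM. At 24 h the values were 7.97, 12.6 and 12.3 FPKM, above all earlier libraries, with replicate 1 the lowest at every time point. The log2 fold change at 24 h was 0.83 (SE 0.19, limma adjusted p = 0.0024).

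SESN3 (ENSG00000149212; chromosome 11, 94898677 to 94965705, - strand), a FOXO target, was the lowest of the 10 genes at every time point. Its values were 0.12, 0.41 and 0.36 FPKM at 0 h. Those at 1 h were 0.12, 0.13 and 0.66 FPKM and those at 2 h 0.18, 0.28 and 0.65 FPKM, both overlapping with 0 h. Replicate 3 stood at 5.13 times the mean of the other replicates at 1 h and 2.79 times at 2 h. At 24 h they were 1.64, 0.93 and 1.15 FPKM, all above the earlier libraries. The log2 fold change of 1.13 (SE 0.30, limma adjusted p = 0.0062) at 24 h was called, but these levels lie near the filter, and the call was lost with a pseudocount of 0.1 or 1, without the filter, on the TPM scale limited to transcripts of 300 bases or more, and when 24 h replicate 1, 24 h replicate 3 or any of the 0 h replicates was left out. Its adjusted p was at most 0.03 in each of these settings. Its only transcript past the filter, ENST00000536441, went from 0.10 to 0.83 FPKM (log2 fold change 1.14, limma adjusted p = 0.0066).

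SESN2 (ENSG00000130766; chromosome 1, 28586029 to 28609002, + strand), a target of p53 and ATF4 and the cell's leucine sensor, stayed between 3.68 and 5.68 FPKM in all 12 libraries. Its values were 4.24, 4.78 and 5.68 FPKM at 0 h and 5.64, 5.21 and 5.28 FPKM at 24 h, and they overlapped. SESN2 had a log2 fold change of 0.13 (SE 0.15, limma adjusted p = 0.48). SPPL3 (r = 0.90), CERS4 (0.88), PCTP (0.88), LDB1 (0.87) and CD97 (0.87) followed it most closely over the 12 libraries.

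Most of the rise in SESN1 came from its downstream start. ENST00000356644, whose promoter window is the downstream of the pair shown above, was at 2.98, 3.77 and 4.8 FPKM at 0 h. At 24 h it was at 6.20, 7.98 and 10.7 FPKM (log2 fold change 1.00, SE 0.24, limma adjusted p = 0.0104), with no overlap. ENST00000436639, from the upstream start, was at 1.57, 1.89 and 1.67 FPKM at 0 h and at 1.35, 1.90 and 0.62 FPKM at 24 h (log2 fold change -0.37, limma adjusted p = 0.359). The share of the upstream form was 29.6% ± 4.5 at 0 h, and by 24 h it was 12.3% ± 6.4 (n = 3, ± SD). The change in share just missed the threshold (limma adjusted p = 0.054), whereas diffSplice, which tests a gene's transcripts together, called it (adjusted p = 0.0124).

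In the TSC complex TSC1 rose. TSC1 (ENSG00000165699; chromosome 9, 135766735 to 135822261, - strand), which stabilises TSC2, was at 4.41, 5.09 and 5.35 FPKM at 0 h. At 1 h and 2 h it ranged from 4.14 to 5.31 FPKM. At 24 h it was at 7.75, 7.34 and 8.24 FPKM, above all earlier libraries. The log2 fold change was 0.60 (SE 0.12, limma adjusted p = 0.0013), and 0.39 (limma adjusted p = 0.0754) with transcripts of class code = alone. No TSC1 transcript was called, and its coding transcript ENST00000298552 ranged from 0.90 to 2.91 FPKM within the 0 h replicates, a wider spread than that of the gene.

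TSC2 (ENSG00000103197; chromosome 16, 2097968 to 2139492, + strand), the GTPase-activating subunit, was at 8.57, 9.72 and 7.52 FPKM at 0 h and at 9.39, 9.21 and 12.2 FPKM at 24 h. The groups overlapped and the log2 fold change was 0.24 (SE 0.14, limma adjusted p = 0.16). Within the gene, 2 transcripts went in opposite directions. ENST00000401874 was at 3.07, 3.8 and 2.92 FPKM at 0 h and at 5.45, 4.65 and 5.21 FPKM at 24 h (log2 fold change 0.58, limma adjusted p = 0.0217). ENST00000350773 went the other way, from 0.87, 0.80 and 1.31 FPKM to 0.14, 0.21 and 0.53 FPKM (log2 fold change -0.93, limma adjusted p = 0.0217), and its share of TSC2 from 12% to 2.7% (limma adjusted p = 0.0173). Both level changes had an adjusted p under 0.05 in 14 of 17 settings (at most 0.0757 and 0.0812), and diffSplice did not call TSC2 (adjusted p = 0.0707). Both start in the same start-site group and are annotated as coding.

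RHEB (ENSG00000106615; chromosome 7, 151163098 to 151217206, - strand) encodes the direct activator of mTORC1. It was at 48.9, 41.2 and 43.4 FPKM at 0 h. At 2 h it was at 62.5, 49.8 and 53.3 FPKM, above the 0 h range. At 24 h it was at 39.7, 44.3 and 37.3 FPKM, within or below that range. Its log2 fold change was 0.31 at 2 h (SE 0.12, limma adjusted p = 0.25) and -0.14 at 24 h (SE 0.12, limma adjusted p = 0.34), neither past the test. From 2 h to 24 h it fell by 0.44 on the log2 scale (SE 0.12, limma adjusted p = 0.0071). ENST00000472642 held 59% and ENST00000262187 29.4% of RHEB at 0 h, and 57.4% and 30.2% at 24 h.

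MTOR (ENSG00000198793; chromosome 1, 11166592 to 11322613, - strand) was at 15.3, 13.8 and 12.9 FPKM at 0 h. At 2 h it was at 15.5, 15.7 and 15.6 FPKM. At 24 h it was at 8.37, 7.47 and 8.72 FPKM, below every earlier library. The log2 fold change at 24 h was -0.73 (SE 0.10, limma adjusted p = 7.2e-05), and between 24 h and 2 h -0.89 (SE 0.10, limma adjusted p = 2.0e-05). The full-length coding transcript ENST00000361445 carried the fall. It was at 10.0, 11 and 10.5 FPKM at 0 h and at 5.73, 4.52 and 3.86 FPKM at 24 h (log2 fold change -1.10, SE 0.17, limma adjusted p = 7.4e-04). The isoforms of class j together went from 0.686 ± 0.098 FPKM at 0 h to 2.58 ± 1.24 FPKM at 1 h, with 2.14 ± 1.69 FPKM after 24 h (n = 3, ± SD). Their spread was wide, and the share of ENST00000361445 in MTOR, 75.9% at 0 h and 57.7% at 24 h, did not pass the usage test (limma adjusted p = 0.163).

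RPTOR (ENSG00000141564; chromosome 17, 78518619 to 78940171, + strand) looked steady as a gene. It was at 16.9, 14.9 and 14.6 FPKM at 0 h and at 17.2, 11.7 and 15.4 FPKM at 24 h, with a log2 fold change of -0.08 (SE 0.14, limma adjusted p = 0.67). An assembled isoform of 4119 bases (TCONS_00112637, class j, nearest to ENST00000306801) was listed at 0, 0 and 0.05 FPKM at 0 h. It was listed at 0 in all 1 h libraries and at 0.05, 0 and 0 FPKM at 2 h. At 24 h it reached 7.26, 2.87 and 4.68 FPKM. Since it passed the filter only through these 24 h libraries, the tests that follow are no separate support for its rise. Its level change was called (limma adjusted p = 2.7e-05, with a log2 fold change of 3.31 that depends on the added constant), and its share rose from 0.1% to 32.3% ± 9.0 (SD, n = 3, limma adjusted p = 2.0e-04). It is the only transcript of its start-site group; where that start lies and which exons it joins were not analysed here. The rest of RPTOR went from 15.5 ± 1.29 FPKM at 0 h to 12.7 ± 1.78 at 2 h and then 9.84 ± 0.922 at 24 h (n = 3, ± SD), a ratio of 0.637 at 24 h. ENST00000306801 itself, the coding reference of 6408 bases, was at 5.35, 5.03 and 4.65 FPKM at 0 h and at 3.35, 3.35 and 4.61 FPKM at 24 h (log2 fold change -0.38, limma adjusted p = 0.111). The rest was formed by leaving out the isoform called higher in these same data, and it was not tested. With a total that differed little between 0 h and 24 h, a lower rest follows from a higher level of this isoform. How reads were divided between overlapping models rests on the Cufflinks estimate.

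**Figure D3:**
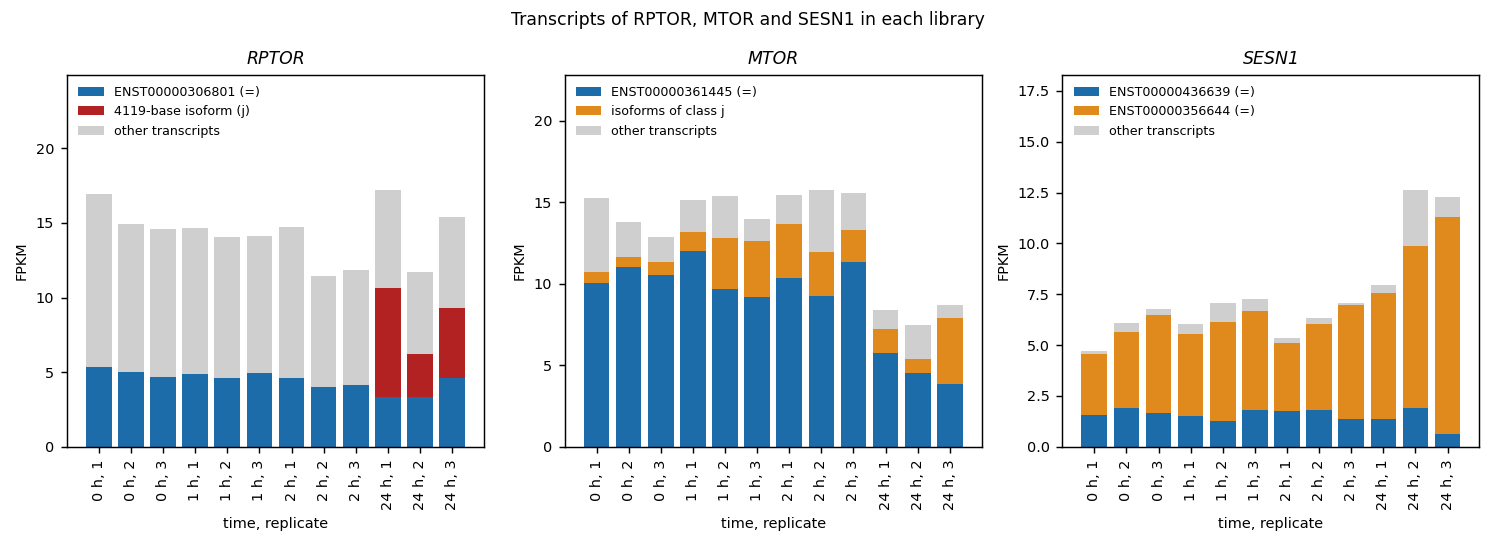
Stacked FPKM of the transcripts of RPTOR, MTOR and SESN1 (y axis, linear from 0) in each of the 12 libraries (x axis, time and replicate). The 4119-base RPTOR isoform is visible in the 24 h libraries alone at 7.26, 2.87 and 4.68 FPKM, the MTOR reference transcript is lowest at 24 h, and the rise in SESN1 lies mostly in ENST00000356644.

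EIF4EBP1 (ENSG00000187840; chromosome 8, 37888052 to 37917883, + strand) was the highest of the 10 genes at 0 h, at 51.5, 50.1 and 50.6 FPKM. At 24 h it was at 68.3, 58.4 and 62.4 FPKM, without overlap. The log2 fold change of 0.31 (SE 0.12, limma adjusted p = 0.0498) lies at the 0.05 threshold, under which it stayed in 10 of 25 alternatives, and its size is below the fold change required for a call. With TPM over all transcripts the direction turned, to -0.55 (limma adjusted p = 0.311). ENST00000338825 held 69.4% of it at both 0 h and 24 h.

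Among the transcripts, 8 of the 45 tested were called at 24 h (log2 fold change beyond 1 and adjusted p under 0.05), against 17.7% of all transcripts tested. Usage, a transcript's level relative to the rest of its gene, changed in 6 of 44 (11.2% of all tested), in DDIT4, TSC2, MTOR and RPTOR, that is in 4 genes where 34.6% of all genes with 2 or more transcripts had such a change. diffSplice called 2 genes, RPTOR (adjusted p = 4.4e-08) and SESN1, against 29.1% of all genes. The transcripts tested in RPTOR include the isoform that passed the filter only through the 24 h libraries. Of the 6, 3 were the minor DDIT4 transcripts, whose usage values fell by 2.25, 2.21 and 1.64 on the log2 scale while their mean shares of DDIT4 went up, from 0.20%, 0.49% and 0.76% at 0 h to 0.70%, 0.75% and 1.21% at 24 h. Their levels at 0 h lay below the added 0.5, and the calls were lost with 0.1 in its place, so no direction is read from them. The usage change in MTOR, of an isoform of class j (limma adjusted p = 0.0364), passed in 9 of 17 settings. At 1 h and 2 h, 0 member transcripts were called for level or for usage by limma (0.00483% and 0.0035% of all tested at 1 h, 0.00322% and 0.00175% at 2 h). Unadjusted p-values under 0.05 numbered 4 for level and 3 for usage at 1 h, and 9 and 10 at 2 h.

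The order of the levels differed between 0 h and 24 h. At 0 h it ran from EIF4EBP1 through RHEB, DDIT4, RPTOR, MTOR, TSC2, SESN1, TSC1 and SESN2 to SESN3. The ranges of DDIT4, RPTOR and MTOR overlapped with each other, as did those of SESN1, TSC1 and SESN2. At 24 h DDIT4 stood above EIF4EBP1 and RHEB by a wide gap, and MTOR, already below RPTOR at 0 h, had a mean below those of SESN1 and TSC2. RPTOR overlapped with SESN1 and TSC2, SESN1 also with TSC2, MTOR and TSC1, and MTOR with TSC1. These are FPKM levels, which are per length of transcript.

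**Figure D4:**
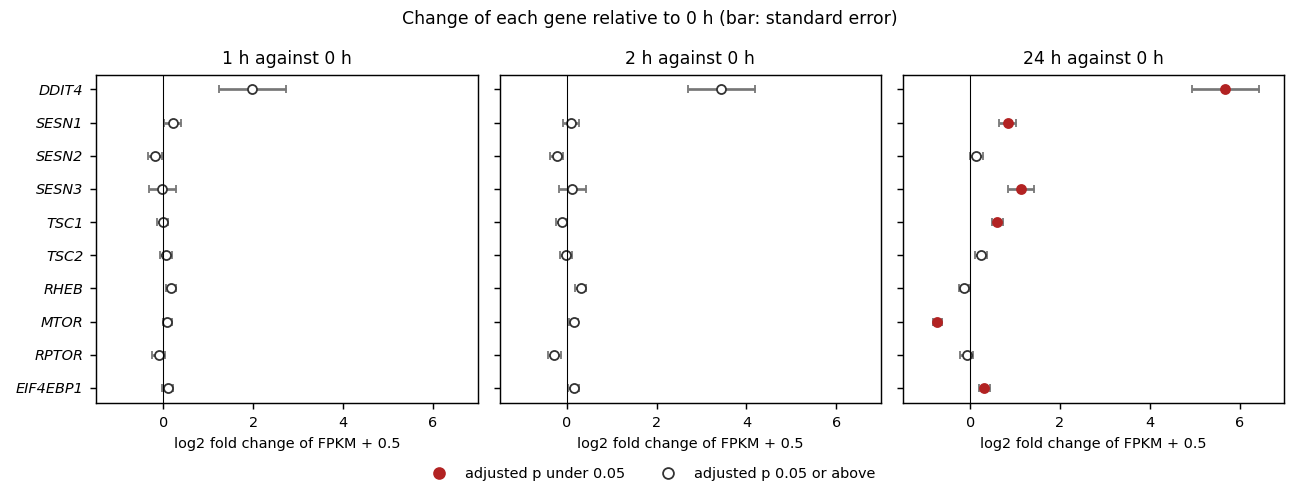
Log2 fold change of FPKM + 0.5 (x axis) of each gene (y axis) at 1 h, 2 h and 24 h against 0 h, with bars for the standard error and filled points for an adjusted p under 0.05. Filled points appear at 24 h alone, from MTOR at -0.73 to DDIT4 at 5.68; on the TPM scale TSC1 and EIF4EBP1 turn to -0.17 and -0.55.

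Between 24 h and 2 h, 0 of the 10 genes passed the strict rule by limma (14.7% of all genes did; 7 had an unadjusted p under 0.05), and 6 had an adjusted p under 0.05 (50.6% of all genes). DDIT4, SESN1, SESN3 and TSC1 were higher at 24 h than at 2 h (23.2% of all genes were) and MTOR and RHEB lower (27.4%). Leaving out replicate 3 at 1 h or replicate 3 at 2 h brought 2 genes, DDIT4 and SESN3, past the strict rule. Taking the replicate number as a block did so for the same genes. The comparison shares its 24 h libraries with that against 0 h.

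Outside the 10 genes, a list of 64 further genes of the pathway had 62 past the filter. At 24 h 14 of the 62 were called, or 22.6% against 18.3% of all genes, 12 higher (8.76% of all genes) and 2 lower (9.51% of all genes). The 12 include PRR5L, which passed the filter only through its 24 h libraries. At an adjusted p under 0.05 the list had 20 higher and 18 lower, 61.3% against 55.3% of all genes, and the median log2 fold change was 0.00. At 1 h and at 2 h limma called 0 of the 62, with 2 and 11 at an unadjusted p under 0.05. The list thus moved in both directions and, as a whole, about as often as other genes.

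Among subunits of the mTOR complexes, 3 of 7 were called, all higher (8.76% of all genes were called higher), and the other 4 were lower at an adjusted p under 0.05 (30.3% of all genes). DEPTOR, an inhibitory subunit of both complexes, went from 0.541, 0.480 and 0.784 FPKM at 0 h to 2.73, 3.08 and 2.87 FPKM at 24 h, a log2 fold change of 1.63. RICTOR, the scaffold of mTORC2, and PRR5L, a binding partner of it, had log2 fold changes of 1.03 and 1.2. PRR5L was at 0.716, 1.32 and 1.05 FPKM at 24 h and at most 0.423 FPKM in the earlier libraries. It thus passed the filter only through the 24 h libraries, and its call is not independent of that selection. The 4 lower genes were MLST8, shared by both complexes, AKT1S1, the mTORC1 inhibitor PRAS40, and MAPKAP1 and PRR5, which belong to mTORC2, with log2 fold changes of -0.65, -0.57, -0.46 and -0.58.

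DDIT4L, the close relative of DDIT4, rose from 0.784, 1.19 and 1.82 FPKM to 13.0, 7.38 and 5.55 FPKM (log2 fold change 2.33, SE 0.32, limma adjusted p = 7.1e-05). It was at 0.841, 1.31 and 1.64 FPKM at 2 h, within the 0 h range. In the same group TBC1D7, the third subunit of the TSC complex, had a log2 fold change of -0.21 that did not pass the test.

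Of the 3 amino acid sensors 2 were called, and of the 12 genes of the Rag GTPases, Ragulator and folliculin 3 were (18.3% of all genes). C7orf60 (SAMTOR, the S-adenosylmethionine sensor) and GATSL3 (CASTOR1, the arginine sensor) rose by log2 fold changes of 2.03 and 1.66, whereas SLC38A9, the lysosomal arginine transporter, fell by 0.68. RRAGD, a Rag GTPase, rose from 4.76, 6.12 and 7.05 FPKM to 20, 23.7 and 32.1 FPKM (log2 fold change 1.98), while RRAGA, RRAGB and RRAGC had log2 fold changes of -0.02, 0.18 and -0.01 that did not pass the test. FNIP1, the partner of folliculin, rose by 1.08. LAMTOR1, the membrane anchor of Ragulator, fell by 1.04 on the log2 scale. In GATOR2, to which sestrins bind, SEH1L fell by 1.18, from 68.5, 60 and 58.3 FPKM to 24.8, 29.1 and 27.9 FPKM, and WDR59 rose by 0.84. In GATOR1 and KICSTOR limma called 0 of 7 (18.3% of all genes), and 3 fell at an adjusted p under 0.05 (30.3% of all genes), the same number as at an unadjusted p under 0.05.

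AMPK, the energy sensor that acts on TSC2 and RPTOR, and its kinase STK11 (LKB1) had 0 of 7 genes called by limma (18.3% of all genes), with 2 higher (PRKAB2 and STK11) and 3 lower (PRKAA1, PRKAB1 and PRKAG1) at an adjusted p under 0.05 (25% and 30.3% of all genes) and 6 at an unadjusted p under 0.05. On the growth factor side IRS2, the insulin receptor substrate, went from 2.55, 2.19 and 2.18 FPKM to 9.92, 10.6 and 15.4 FPKM (log2 fold change 2.13). Of 11 targets and outputs 3 were called, all higher, or 27.3% against 18.3% of all genes called in either direction and 8.76% called higher. At an adjusted p under 0.05, 5 were higher and 3 lower (25% and 30.3% of all genes). PDCD4, a translation repressor that S6 kinase marks for degradation, had the largest log2 fold change of FPKM + 0.5 on the list, from 10.0, 11.3 and 17.1 FPKM to 52.2, 83.1 and 76.7 FPKM (log2 fold change 2.43, SE 0.33, limma adjusted p = 6.3e-05). As a ratio of means it stood at 5.51, below the more weakly expressed DDIT4L at 6.83 and PRR5L at 6.38. ULK1, the kinase that starts autophagy, and EIF4B, an initiation factor, rose by 1.35 and 1.11. EIF4E, the cap-binding protein that EIF4EBP1 holds, fell by 0.81 and EIF4EBP2 by 0.47 on the log2 scale.

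**Figure D5:**
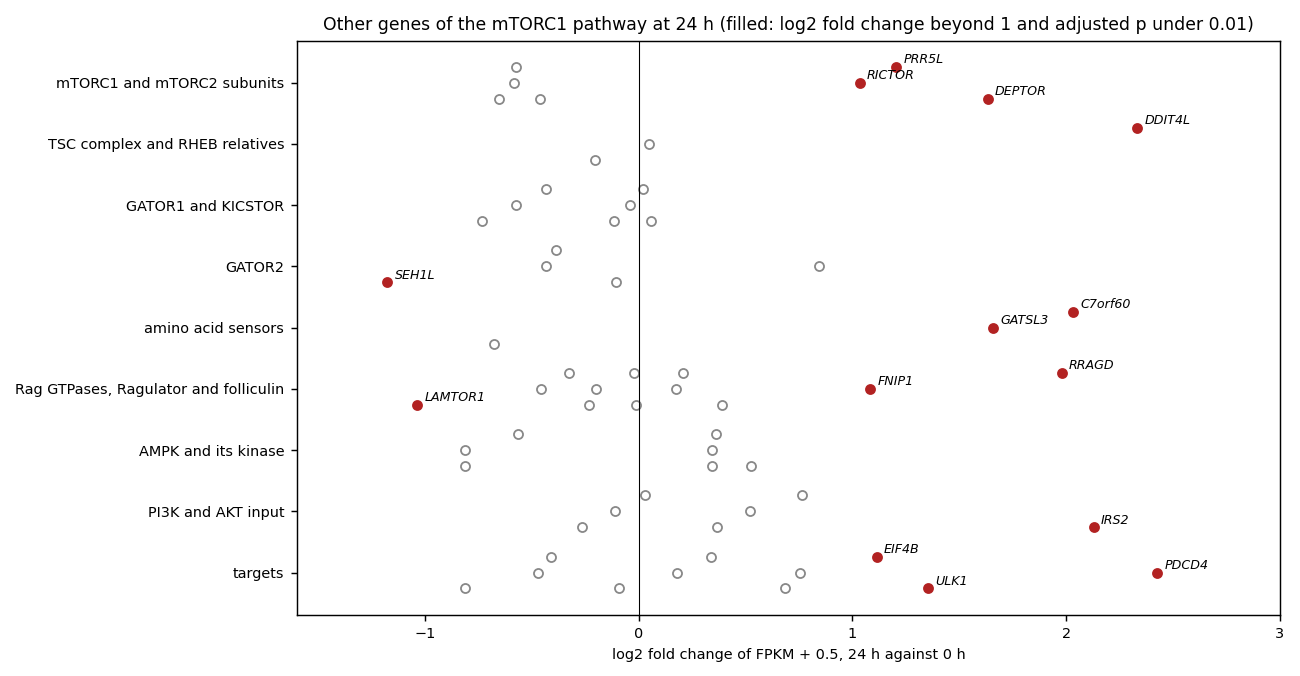
Log2 fold change of FPKM + 0.5 at 24 h against 0 h (x axis) of 62 further pathway genes, grouped by role (y axis), with filled and named points for the 14 genes called. The called genes reach from SEH1L at -1.18 to PDCD4 at 2.43, and values on both sides of 0 occur in every group.

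These changes are relative to the FPKM scale of each library. Transcripts under 300 bases carried 57.0% to 87.6% of a library's summed FPKM, and rescaling each library to an equal sum (TPM over all transcripts) moved the median log2 fold change of all genes at 24 h from -0.05 to -0.78. On that scale TSC1 stood at -0.17, EIF4EBP1 at -0.55 and SESN1 at 0.01, none past the test, while DDIT4 at 4.77 and MTOR at -1.46 kept their direction and passed. Relative to the shifted median these were 0.61, 0.23, 0.80, 5.55 and -0.67. The split of called genes was then 209 higher and 3995 lower, against 1462 higher and 1586 lower on the deposited scale. TPM over transcripts of at least 300 bases moved the median to -0.13 only, with SESN1 at 0.76 and TSC1 at 0.53.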

How the data were processed

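The deposited FPKM values of each transcript in the 12 libraries were used as given, without rescaling between libraries. The authors aligned paired, strand-specific reads to hg19, built transcript models per sample with Cufflinks, combined these with Ensembl transcripts and quantified each model as FPKM. Columns of class code, gene name, length and start-site group came from the accompanying attribute table. Same-numbered libraries deviated together in all 3 pairs (r over 0.1) for 0 h with 2 h and 1 h with 2 h, but not for the other pairs of time points (10 of 18 pairs in all), and no source says what the numbers share. No value was imputed and no library was left out of the main analysis.

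FPKM was summed per gene name over transcripts of class code = or j. Gene names with a sum above 0.5 in at least 3 libraries were tested with limma 3.58.1 (R 4.3.3; lmFit, eBayes with trend) on log2(FPKM + 0.5), two-sided. Thresholds were a log2 fold change beyond 1 and an adjusted p under 0.01. Transcripts used an adjusted p under 0.05, and usage was the log2 ratio of a transcript to the rest of its gene, each plus 0.5, without trend. The steps were tested on simulated data. Tables and figures used Python 3.11.15, pandas 2.3.3 and matplotlib 3.10.9.

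Named were all 10 genes, called genes of the pathway list (up to 15, largest change first), transcripts with a share of at least 20% or a call, and the 5 genes most correlated with DDIT4 and with SESN2. Some pathway genes below that call are also given by role, chosen after their values were seen. The 10 genes and the lists were chosen with earlier results of these data known. Promoter windows were read from GRCh37. The alternatives covered scaling, pseudocount, filters, class codes, samples in the fit, the replicate block and leaving out libraries.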

Additional observations from a re-analysis of the deposited data

Results flagged for a closer look

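The change of 6 genes differed between 24 h and 2 h by a test of the difference itself (limma, adjusted p under 0.05). DDIT4 was higher at 24 h by 2.24 on the log2 scale (SE 0.75), SESN3 by 1.01 (SE 0.30), SESN1 by 0.74 (SE 0.19) and TSC1 by 0.72 (SE 0.12). MTOR was lower, at -0.89 (SE 0.10), and so was RHEB, at -0.44 (SE 0.12). All 3 libraries at 24 h lay on that side of all 3 libraries at 2 h in each of the 6 genes. Of all genes tested, 50.6% differed between these time points at the same threshold.

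The difference in DDIT4 was 1.63 without replicate 1 at 2 h (adjusted p = 0.11) and 3.08 without replicate 3 at 1 h and at 2 h. Its adjusted p also rose above 0.05 without replicate 2 at 2 h and without replicate 1 or 2 at 24 h. In the settings other than leaving out replicates it was under 0.05 in 11 of 12, with a highest limma adjusted p of 0.0734. The adjusted p of SESN3 rose above 0.05 without replicate 1 at 2 h or at 24 h. SESN1, TSC1, MTOR and RHEB stayed under 0.05 when any library was left out but not with TPM over all transcripts.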

How the results depend on the processing

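Over the alternatives tried, DDIT4 and MTOR kept their direction and an adjusted p under 0.05 at 24 h in all 25, and SESN3 in the 24 that gave it a value (its sum was below the filter under TPM over all transcripts); SESN1 did so in 24 and TSC1 in 23 of 25. The 2 genes called at 24 h (DDIT4 and SESN3) became 1, DDIT4, under TPM limited to transcripts of at least 300 bases, with a pseudocount of 0.1 or 1 and without the filter. Leaving out a library gave 1 to 2 (DDIT4 alone without any 0 h library or 24 h replicate 3; DDIT4 with SESN1 at 1.04 without 24 h replicate 1). The calls were DDIT4, SESN3 and MTOR (-1.09) with class code = alone, and DDIT4 and MTOR (-1.46) with TPM over all transcripts. With an adjusted p under 0.05 alone there were 6. The 0 genes at 2 h became 1 with TPM over all transcripts and 1 without replicate 3 at 1 h and at 2 h. The 0 genes between 24 h and 2 h became 1 with TPM over all transcripts and with transcripts of at least 300 bases, 2 with class code = alone (MTOR and TSC1), 2 without replicate 3 at 1 h and at 2 h, 0 to 2 when a library was left out, and 6 with an adjusted p alone. The 14 pathway genes were 38 with an adjusted p alone. Usage changed in 2 transcripts with a pseudocount of 0.1 and in 12 with 1, against 6, and in 2 genes with diffSplice against 4. The cause was not tested.

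With TPM over all transcripts the log2 fold change at 1 h was -0.35 for SESN1, -0.51 for TSC2, -0.46 for RHEB, -0.50 for MTOR and -0.53 for EIF4EBP1; at 2 h it was -0.80 for SESN1, -0.76 for RHEB, -0.85 for MTOR and -0.91 for EIF4EBP1; and at 24 h -0.57 for SESN2, -0.17 for TSC1, -0.55 for TSC2 and -0.55 for EIF4EBP1. Values near 0 changed sign elsewhere: at 1 h SESN3 (0.22) and TSC1 (0.0787) with only transcripts past the filter; MTOR at 1 h (-0.12) and 2 h (-0.0324) and RPTOR between 24 h and 2 h (-0.14) with class code = alone; TSC2 at 2 h (0.0054) with median-of-ratios scaling. Without replicate 3 at 1 h and at 2 h these were TSC1 (0.0055) and EIF4EBP1 (-0.0412) at 1 h and SESN3 (-0.10) at 2 h. Leaving out a library gave -0.32 to 0.13 for SESN3, -0.09 to 0.0361 for TSC1, -0.0332 to 0.14 for TSC2 and -0.0412 to 0.18 for EIF4EBP1 at 1 h, -0.0429 to 0.20 for SESN1, -0.10 to 0.28 for SESN3 and -0.10 to 0.0745 for TSC2 at 2 h, and -0.19 to 0.0732 for RPTOR at 24 h.

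With a replicate block 2 genes, DDIT4 and SESN3, passed the strict rule between 24 h and 2 h, DDIT4 at 2 h had an adjusted p of 0.0232 and SESN2 between 24 h and 2 h 0.0437; no other call on a gene's adjusted p under 0.05 changed. The usage change of both SESN1 transcripts had an adjusted p of 0.0359 with the block and of 0.0326 with a pseudocount of 1, against 0.054. The number of reads behind a value is not known from FPKM, which limits what can be said of SESN3 and of minor transcripts.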
